A study of Rattus norvegicus with 24 samples.

Results

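Rats that had received only normal saline into the trachea were compared between day 28 and day 14, using all 12 saline libraries of a series of 24. The lungs came from male Wistar rats, an outbred stock, kept free of specific pathogens and, per the labels, aged 5 to 6 weeks and weighing 170 to 190 g at the start, so that the day 28 rats were older at collection. The saline groups held 6 lungs at day 14 and 6 at day 28; the other 12 libraries came from rats instilled with silica particles at 200 mg/mL and taken on the same days. Whole lung RNA was selected for poly-A tails and sequenced, with 1 library per biological replicate. No group without an instillation enters, and age, time since instillation and day of collection cannot be told apart. In whole lung, fewer cells of a type and less RNA per cell also cannot be told apart.

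Saline is the vehicle control in silicosis models, and rats of this age are still growing. The lung's scaffold is laid down during that growth: fibrillar collagens give tensile strength, a basement membrane of collagen IV, laminins and nidogen lies under epithelium and endothelium, and elastic fibres of elastin on fibrillin microfibrils give recoil. Fibroblasts make most of these proteins, and lysyl oxidases cross-link collagen and elastin.

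Matrix genes were lower at day 28, and ribosomal protein genes, some immediate early genes and the lung epithelial factor genes Nkx2-1 and Foxa2 were higher. Many of these calls were lost once each gene was adjusted for its library's mitochondrial percent, as given below. Among 19150 genes with at least 0.5 FPKM in at least 6 of the 12 libraries, 4666 (24.4%) differed at an adjusted p under 0.05, 2477 of them higher at day 28 (12.9%) and 2189 lower (11.4%). FPKM, the authors' unit, is a fragment count scaled to gene length and library size, and every log2 difference here is day 28 minus day 14 on log2(FPKM + 1), which understates the change of low genes. In 1737 genes (9.07%) the 6 and 6 libraries did not overlap. With FPKM rescaled to leave out mitochondrially encoded genes, the median of all genes moved from 0.04 to 0.10 and the calls became 3251 higher and 1811 lower. The balance turned the other way under median of ratios scaling (2133 higher, 2512 lower), quantile normalization (2089 and 2603) and voom on recovered reads (2025 and 2526), so whether rises or falls were more numerous depends on the scaling.

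The libraries of day 28 also differed from those of day 14 as libraries. Mitochondrially encoded genes took 2.50% ± 0.652 of the reads at day 14 and 5.29% ± 2.14 at day 28 (SD, n = 6 each; exact two-sided permutation test, p = 0.00433). Day 28 replicates 1, 2 and 6 were the highest, at 8.58%, 5.28% and 6.90%, and the main results below are given with and without them. Without these 3 libraries, 1231 genes (6.43%) were called, 563 higher (2.94%) and 668 lower (3.49%), of which 1081 were called with all 12 as well. With them left out, the share at day 28 was 3.66% ± 0.863 (n = 3). As the 3 libraries were chosen by this same share, no test of it is read without them. Adjusting each gene for its library's mitochondrial percent left 76 calls, of which 29 were higher and 47 lower. Totals were 65542085 to 84605281 reads at day 14 and 55066492 to 65155347 at day 28. Expression also tracked gene length, taken as the divisor behind the FPKM: Spearman's rho between a gene's deviation from its own mean and its length was 0.166 ± 0.0912 at day 14 and -0.134 ± 0.0858 at day 28 (exact permutation p = 0.00216, the smallest that 6 against 6 libraries allow). With the tested genes cut by length into 5 groups of about equal size, the median log2 difference fell from 0.18 in the shortest group to -0.13 in the longest, and was 0.14 and -0.13 without the 3 libraries. In the longest group, 22.7% of genes were called lower, against 4.57% in the shortest. The divisor need not be the transcript length: it was 1745 bases for both Col3a1 and Eln and 687 for COX1, so levels of different genes are not compared here and a summed level depends on these divisors. The part of mitochondrial share, depth and length in the gene results was not tested.

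**Figure D1:**
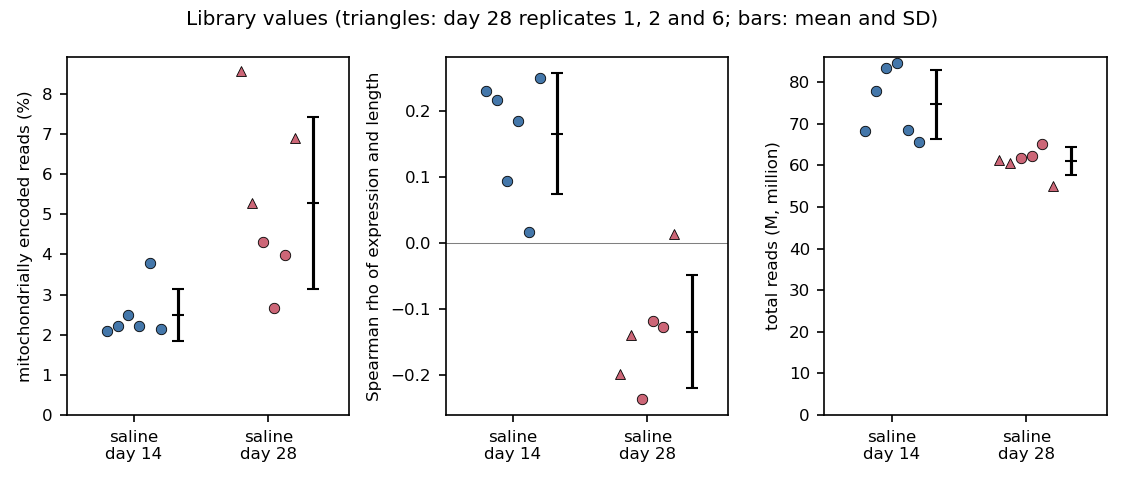
Mitochondrially encoded reads (percent), Spearman's rho of expression and gene length, and read totals (M reads) in each saline library; points are libraries, triangles are day 28 replicates 1, 2 and 6, and bars give mean and SD. The mitochondrial share reached 8.58% at day 28 against at most 3.80% at day 14, and rho was -0.134 on average at day 28 against 0.166.

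Fibrillar collagen genes were lower at day 28. Of 7 listed genes 6 were tested, and 5 of the 6 fell (median log2 difference -0.87, against 0.04 over all tested genes), while Col5a3 did not pass (-0.02, adjusted p = 0.936). Col3a1, the chain of type III collagen, lay at 1161 to 1667 FPKM (median 1384) at day 14 and 439 to 668 FPKM (median 604) at day 28 (log2 difference -1.29, SE 0.13, adjusted p = 2.97e-04; without the 3 libraries -1.12, adjusted p = 0.0049). Type I collagen's Col1a1 lay at 83.6 to 131 FPKM (median 122) at day 14 and 36.1 to 57.2 FPKM (median 52.8) at day 28 (log2 difference -1.18, SE 0.13, adjusted p = 6.59e-04; without the 3 libraries -1.06, adjusted p = 0.00914). The 2 groups did not overlap for either gene. Col1a2, the partner chain, was at -0.98, adjusted p = 9.44e-04, and Col5a2, of the type V collagen that nucleates fibrils, at -0.76, adjusted p = 7.42e-04; the same 5 genes were called without the 3 libraries. After adjustment for mitochondrial percent, 3 of the 6 fibrillar collagen, 3 of 12 basement membrane and 3 of 13 elastic fibre genes were called, all lower.

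Most basement membrane genes were lower too. Of 14 listed genes 12 were tested: 8 were lower, none higher, and the median was -0.96 (-0.75 without the 3 libraries, with 9 lower). Nid1, the nidogen that links laminin to collagen IV, lay at 61.7 to 97.3 FPKM (median 76.4) at day 14 and 24.9 to 38.1 FPKM (median 29.8) at day 28 (log2 difference -1.32, SE 0.13, adjusted p = 2.93e-04; without the 3 libraries -1.12, adjusted p = 0.00817). Col4a1 lay at 362 to 501 FPKM (median 444) at day 14 and 154 to 245 FPKM (median 210.1) at day 28 (log2 difference -1.14, SE 0.13, adjusted p = 7.42e-04; without the 3 libraries -0.89, adjusted p = 0.00769). Every day 28 library was below every day 14 library for both. The laminin chains Lamc1 (-1.11, adjusted p = 0.00109) and Lamb1 (-0.93, adjusted p = 0.00151) fell, while Lama5 was at -0.01 (adjusted p = 0.958) and Lamb2 at -0.06 (adjusted p = 0.749). The median length of this list, 6038.5 bases, lies in the longest length group, whose median log2 difference was -0.13.

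Col4a1 and Col4a2 lie head to head and are known to share a promoter, and both fell: Col4a2, named after its values were seen, was at -1.20 (adjusted p = 0.0016; without the 3 libraries -0.90, adjusted p = 0.0153). The 76 bases between their starts are shown because both genes are read outward from them, at chr16:84885521-84885596, plus strand, of the RefSeq assembly GRCr8, which is not the files' build; capitals mark the CCGCCC motif.
Col4a1 and Col4a2: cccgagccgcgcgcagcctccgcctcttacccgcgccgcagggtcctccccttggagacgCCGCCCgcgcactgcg
The motifs below, chosen after values were seen, were searched on both strands in the 150 bases before the start of the matrix genes with a RefSeq promoter entry, which do not include Col1a1, Col3a1 and Eln. GGGCGG (or CCGCCC) was present in 13 of 24 such promoters and in 26.0% of all 33469 promoters, CCAAT (or ATTGG) in 2 of 24 and 23.5%, and TATAAA (or TTTATA) in 0 of 24 and in 2678 of the 33469. The 24 include genes that were not called, such as Col5a3, Lama5 and Ltbp1. The windows of Col4a1 and Col4a2 share the 76 bases shown, so the same CCGCCC there is counted for both. A match is a description of the letters and not a site.

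Most tested elastic fibre genes were lower. Of 15 listed genes 13 were tested, 9 were lower and none higher, with a median of -0.74; 7 were lower without the 3 libraries. Eln, elastin itself, lay at 449 to 729.5 FPKM (median 586) at day 14 and 180.1 to 251 FPKM (median 204) at day 28 (log2 difference -1.44, SE 0.14, adjusted p = 2.93e-04; without the 3 libraries -1.45, adjusted p = 0.00817). Fbn1, the fibrillin of microfibrils, lay at 27.4 to 36.1 FPKM (median 28.4) at day 14 and 11.2 to 15.3 FPKM (median 13.5) at day 28 (log2 difference -1.16, SE 0.10, adjusted p = 1.91e-04; without the 3 libraries -1.06, adjusted p = 0.0049). The groups stood apart without overlap in both genes. Fbln5, which helps assemble elastic fibres, was lower (-0.91, adjusted p = 2.93e-04), and so was Ltbp2, a microfibril-binding protein (-0.74, adjusted p = 0.00201). Ltbp1, which holds latent TGF-beta, was at -0.05 (adjusted p = 0.712).

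**Figure D2:**
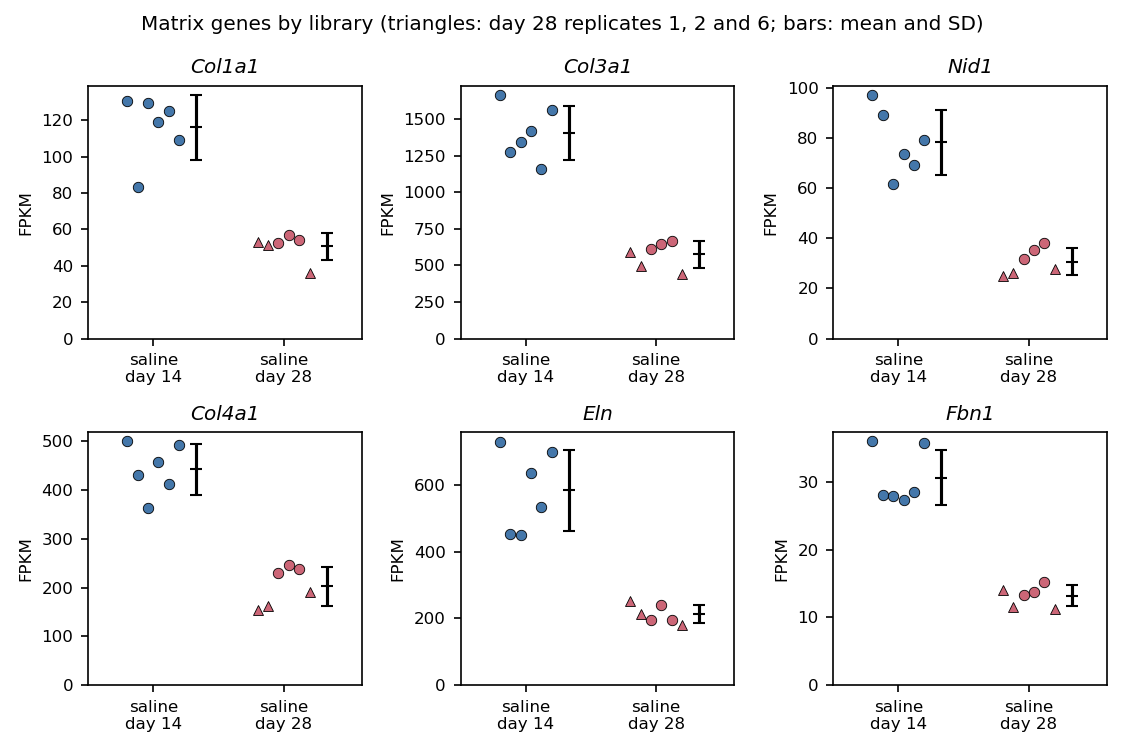
FPKM of 6 matrix genes in each saline library; points are libraries, triangles are day 28 replicates 1, 2 and 6, and bars give mean and SD. In all 6 genes every day 28 library lies below every day 14 library.

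The enzymes that finish the matrix, and those that cut it, followed in part. Among 13 collagen processing enzymes 5 were lower and 8 did not pass (median -0.23). The cross-linking enzyme Lox lay at 70 to 110 FPKM (median 89.3) at day 14 and 31.7 to 57 FPKM (median 39.7) at day 28 (log2 difference -1.08, SE 0.14, adjusted p = 0.00101; without the 3 libraries -0.89, adjusted p = 0.0167). Loxl2 fell (-1.01, adjusted p = 0.00141), as did Adamts2, which trims procollagen (-1.18, adjusted p = 2.93e-04), and Plod2, a lysyl hydroxylase (-0.46, adjusted p = 0.00394). Of 13 tested matrix proteases and inhibitors 6 were lower (3 without the 3 libraries): the gelatinase Mmp2 (-1.07), its activator Mmp14 (-0.82) and the inhibitor Timp3 (-0.84) had adjusted p of 7.67e-04, 0.00279 and 0.00731. Fn1, fibronectin, fell by 1.13 (adjusted p = 0.00215). In the TGF-beta list 4 of 19 genes were lower and none by limma without the 3 libraries (7 at an unadjusted p under 0.05). Its share of calls was near the 24.4% of all tested genes, of which 11.4% were lower. Tgfb1 itself was at -0.13 (adjusted p = 0.537).

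Some markers of the cells that carry this matrix were lower as well. Of 11 fibroblast markers 7 were lower with all 12 libraries and 3 without the 3, among them Itga8 (-1.30, adjusted p = 0.00325), an integrin subunit, and Npnt (-1.27, adjusted p = 0.00199), its matrix ligand. The summed level of the fibroblast list was 616 to 789.7 FPKM at day 14 and 362 to 609.9 FPKM at day 28. Of 16 endothelial markers 8 were lower and 1 higher (4 lower without the 3), including Cdh5, the endothelial cadherin (-0.83, adjusted p = 0.00411), and Kdr, a VEGF receptor (-0.83, adjusted p = 0.00566; without the 3 libraries -0.56, adjusted p = 0.0672). The endothelial list ran from -0.86 to 1.69, with 13 of 16 markers below 0 and 3 above. The endothelial sum was 2648 to 3422 FPKM at day 14 and 1502 to 2910 FPKM at day 28. At day 28 it was 1502 to 2315 FPKM in replicates 1, 2 and 6 and 2533 to 2910 FPKM in replicates 3, 4 and 5. Smooth muscle markers had 2 of 10 lower, near the 24.4% called over all tested genes (11.4% lower), and Acta2 was at -0.23 (adjusted p = 0.377). After adjustment for mitochondrial percent, none of the fibroblast, endothelial or smooth muscle markers was called.

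Some cell cycle and lipid synthesis genes were lower with all 12 libraries, and none of them was called without the 3. Beside the counts below, 24.4% of all tested genes were called with all 12 libraries (12.9% higher, 11.4% lower). Without the 3 the share was 6.43%. Of 24 cell cycle genes 10 were lower, none higher, and none was called by limma without the 3 libraries (4 at an unadjusted p under 0.05; median -0.40 against -0.15). Tyms, which makes thymidylate, was at -0.44 (adjusted p = 0.00843; without them -0.36, adjusted p = 0.0884). Fatty acid synthesis genes were lower in 6 of 14 and in none without them (5 at an unadjusted p under 0.05), with Acly, which makes cytosolic acetyl-CoA, at -0.54 (adjusted p = 0.00769). Cholesterol synthesis had 6 of 21 lower and 1 higher, and none of either without them (4 at an unadjusted p under 0.05). In the list of the IGF axis and imprinted growth genes, 3 of 17 were higher and 3 lower (median 0.07). Without the 3 libraries 1 was higher, Cdkn1c, a cell cycle inhibitor (0.80, adjusted p = 0.0337), and 1 lower, Peg3, an imprinted zinc finger gene (-0.57, adjusted p = 0.0333). Alveolar type 1 markers had 3 of 10 lower (median -0.45), and without the 3 libraries 1, Akap5 (median of the list -0.17). The type 2 list had 1 of 10 higher, and none without the 3 libraries (1 at an unadjusted p under 0.05 by limma). It was Sftpb (0.36, adjusted p = 0.0422), a surfactant protein. The call for Sftpb changed without any 1 of day 14 replicates 1, 2, 3, 4, 5 and 6 or day 28 replicates 2, 3, 4 and 6, with 0.29 to 0.39 over all 12 omissions. Sftpc, a surfactant protein of type 2 cells and a defining lung marker, lay at 9878 to 13601 FPKM (median 11089.7) at day 14 and 6250.2 to 13212 FPKM (median 10673) at day 28 (log2 difference -0.26, SE 0.25, adjusted p = 0.464; without the 3 libraries 0.12, adjusted p = 0.715). It was high in all 12 libraries, and the groups overlapped.

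Ribosomal protein genes were higher at day 28. Of 23 tested, 14 rose and none fell (median 0.28), and 12 rose without the 3 libraries; under the 4 other scalings tried with all 12 libraries, 9 to 18 rose and none fell. After adjustment for mitochondrial percent 1 rose. Rplp2, of the ribosomal stalk, lay at 82.3 to 129 FPKM (median 88) at day 14 and 166 to 415 FPKM (median 270.2) at day 28 (log2 difference 1.36, SE 0.21, adjusted p = 0.00244; without the 3 libraries 1.06, adjusted p = 0.0269), without overlap. Rps2 rose by 0.90 (adjusted p = 0.00507) and Rpl8 by 0.44 (adjusted p = 0.00586). The median length of the list, 965 bases, lies in the shortest length group, whose median log2 difference was 0.18.

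Several transcription factor genes rose. Nkx2-1, a lineage factor of lung epithelium, lay at 32.1 to 47.6 FPKM (median 37.3) at day 14 and 58.1 to 125 FPKM (median 75.2) at day 28 (log2 difference 1.03, SE 0.15, adjusted p = 0.00199; without the 3 libraries 0.80, adjusted p = 0.0147). Foxa2, its partner in airway and alveolar cells, lay at 9.46 to 11.5 FPKM (median 10) at day 14 and 14.8 to 16.1 FPKM (median 15.1) at day 28 (log2 difference 0.52, SE 0.07, adjusted p = 0.00133; without the 3 libraries 0.53, adjusted p = 0.0158). For both, all day 28 libraries were above all day 14 libraries. In the same list of 12 tested genes 3 were higher in all, and Sox7 and Sox12 were lower. Without the 3 libraries Nkx2-1 and Foxa2 were the only calls. After adjustment for mitochondrial percent 1 gene of this list was called, higher, so Nkx2-1 and Foxa2 were not both called. The call for Sox12 changed without any 1 of day 14 replicates 1, 2, 4 and 6 or day 28 replicates 1, 2, 3 and 4, with -0.53 to -0.37 over all 12 omissions. Of 21 immediate early genes, which respond within minutes to many stimuli, 4 were higher and 1 lower. As a list its share of calls was near the 24.4% of all tested genes (12.9% higher, 11.4% lower). Without the 3 libraries 3 were higher and none lower, against 2.94% and 3.49% of all tested genes. With adjustment for mitochondrial percent 1 of the 21 was called, higher. Jund lay at 188 to 270.2 FPKM (median 214) at day 14 and 338 to 521 FPKM (median 384) at day 28 (log2 difference 0.91, SE 0.12, adjusted p = 0.00123; without the 3 libraries 0.90, adjusted p = 0.0122). Junb (1.07, adjusted p = 0.00401) and Klf2 (0.94, adjusted p = 0.0014), a factor that flow induces in endothelium, rose too, with adjusted p of 0.0312 and 0.0225 without the 3 libraries. Cebpb rose with all 12 libraries (log2 difference 1.74, SE 0.55, adjusted p = 0.0367; without the 3 libraries 1.55, adjusted p = 0.224), and day 14 replicate 5, at 0.752 FPKM, stood apart from its group. The call for Cebpb changed without any 1 of day 14 replicates 1, 4 and 6 or day 28 replicates 1, 2, 3 and 6, with 1.15 to 1.94 over all 12 omissions. Atf4, the stress-response factor, rose by 0.67 (adjusted p = 0.00414), while the chaperone Hspa5 fell by 0.57 (adjusted p = 0.0202; without the 3 libraries -0.32, adjusted p = 0.214).

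**Figure D3:**
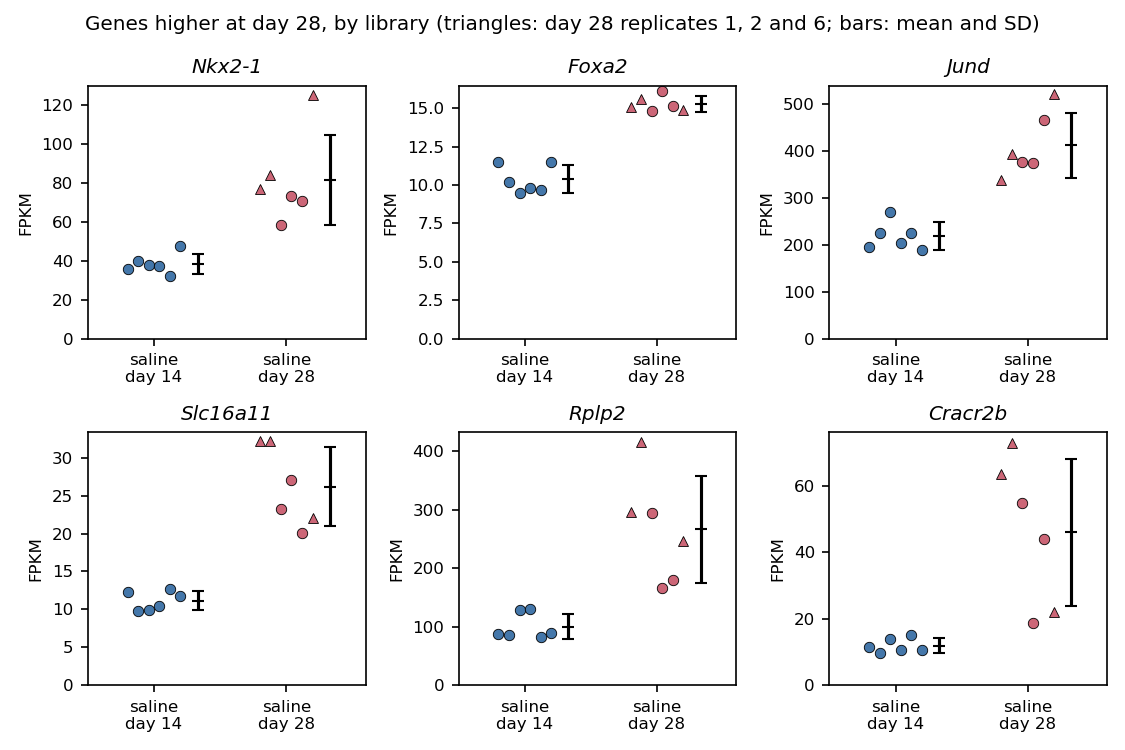
FPKM of 6 genes higher at day 28 in each saline library; points are libraries, triangles are day 28 replicates 1, 2 and 6, and bars give mean and SD. In all 6 genes every day 28 library lies above every day 14 library. For Slc16a11, Cracr2b and Rplp2 this follows from the rule that named them, which asks for no overlap.

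Ciliated cell markers were higher with all 12 libraries and not called without the 3. Of 17 ciliated cell markers 11 rose (median 0.83), and none was called by limma without them (6 at an unadjusted p under 0.05; median 0.53). Dnah12, a ciliary dynein chain, lay at 6.4 to 16.4 FPKM (median 8.65) at day 14 and 10.7 to 36.9 FPKM (median 22) at day 28 (log2 difference 1.11, SE 0.29, adjusted p = 0.0177; without the 3 libraries 0.59, adjusted p = 0.197). The 2 groups overlapped for it. Summed ciliated markers were 885 to 1459.6 FPKM in day 28 replicates 1, 2 and 6 and 707 to 1172 FPKM in replicates 3, 4 and 5. Of 8 airway secretory markers 2 rose, Scgb1a1 and Scgb3a2, 4 were below 0 (down to -1.05 in Bpifa1, adjusted p = 0.617), and the median was 0.17. As a list its share of calls was near the 24.4% of all tested genes (12.9% higher). None was called by limma without the 3 libraries (1 at an unadjusted p under 0.05). Scgb1a1, the club cell secretory protein, lay at 10029.6 to 19041 FPKM (median 14163) at day 14 and 14784 to 54909 FPKM (median 34561) at day 28 (log2 difference 1.28, SE 0.36, adjusted p = 0.0246; without the 3 libraries 0.93, adjusted p = 0.124). The call for Scgb1a1 changed without any 1 of day 14 replicates 1, 2 and 4 or day 28 replicates 1 and 2, with 1.14 to 1.52 over all 12 omissions. The call for Scgb3a2 changed without any 1 of day 14 replicates 1, 2, 3, 4 and 6 or day 28 replicates 1, 2, 3 and 4, with 0.94 to 1.44 over all 12 omissions. Mitochondrially encoded genes rose in 6 of 10 tested and in none without the 3 (3 at an unadjusted p under 0.05). The 3 libraries were chosen by their share of reads from these same genes, so this loss of calls was largely fixed in advance. COX2 lay at 1355 to 2329.6 FPKM (median 1443) at day 14 and 1844 to 6620.2 FPKM (median 3387) at day 28 (log2 difference 1.14, SE 0.26, adjusted p = 0.0114; without the 3 libraries 0.71, adjusted p = 0.0791). The call for COX1 changed without any 1 of day 14 replicates 1, 2, 3, 4 and 6 or day 28 replicates 1, 2, 3 and 6, with 0.85 to 1.21 over all 12 omissions. It was at -0.10 under quantile normalization, against 1.04 as reported, so its direction depends on the scaling. ND4, ND4L and ATP8 did not pass the filter; ND4 was at most 0.707 FPKM at day 14 and reached 1622 FPKM in a day 28 library.

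Among called genes whose groups did not overlap, chosen for the size of their change, Palm2, a paralemmin, fell the most. It lay at 6.97 to 14.9 FPKM (median 9.27) at day 14 and 0.224 to 1.46 FPKM (median 0.495) at day 28 (log2 difference -2.70, SE 0.21, adjusted p = 1.37e-04; without the 3 libraries -2.46, adjusted p = 0.0049), without overlap. The other 9 falls were Lrrc8a, a volume-regulated anion channel subunit, Irf9, of the interferon response, Aqp1, the endothelial water channel, Mcc, Rasgrp3, Ssh2, Jcad, Scn3b and Numb, at -2.29 to -1.47. Aqp1 was 324 FPKM in day 14 replicate 3, and was not called without the 3 libraries (-1.44, adjusted p = 0.0511). Among the rises, Slc16a11, a transporter of the monocarboxylate family, lay at 9.81 to 12.6 FPKM (median 11.1) at day 14 and 20.1 to 32.2 FPKM (median 25.2) at day 28 (log2 difference 1.14, SE 0.12, adjusted p = 5.96e-04; without the 3 libraries 1.01, adjusted p = 0.00674). Cracr2b, a regulator of calcium entry, lay at 9.76 to 15.1 FPKM (median 10.9) at day 14 and 18.7 to 72.8 FPKM (median 49.3) at day 28 (log2 difference 1.72, SE 0.30, adjusted p = 0.00408; without the 3 libraries 1.53, adjusted p = 0.0231). Scand1, Wasf3, Ccdc190, RT1-N2, Lrrc10b, Efcab2, Cebpb and Rplp2 completed the 10, at 1.10 to 1.79; Efcab2 and Cebpb were not called without the 3 libraries. The rule for genes called in both fits added 4930444P10Rik (1.40) and rnf141 (-2.81), and rnf141 had 1 library in each group against its group's direction, day 14 replicate 5 at 1.16 FPKM and day 28 replicate 1 at 27 FPKM. The call for rnf141 changed without any 1 of day 14 replicates 1, 2, 3, 4 and 6 or day 28 replicates 2, 3 and 6, with -3.47 to -2.59 over all 12 omissions.

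Immune and injury lists differed in their share of calls. Over all tested genes that share was 24.4% with all 12 libraries and 6.43% without the 3. No gene of the MHC class II (10 tested), T and NK cell (16), B and plasma cell (13), platelet (5) or mesothelial (6) lists was called by limma, with all 12 libraries or without the 3. At an unadjusted p under 0.05 there were 0, 0, 2, 0 and 0 with all 12, and 1, 2, 1, 0 and 3 without the 3. Of the 16 T and NK markers 14 were below 0 with all 12 libraries and 14 above 0 without the 3. Of the 6 mesothelial markers 4 and 6 were above 0. Macrophage markers had 1 of 16 lower, Csf1r (-0.80, adjusted p = 0.0203; without the 3 libraries -0.47, adjusted p = 0.0744), the receptor for macrophage growth factor; without the 3 libraries 1 was higher, Trem2 (1.42, adjusted p = 0.0471), a lipid-sensing receptor. In the lung injury list 3 of 13 were lower and none higher, with all 12 libraries and without the 3; these were Fn1, Col1a1 and Col3a1, described above as matrix genes. The median was -0.44 (-0.19 without the 3), and 12 of 13 were below 0, against 8 of 13 without them. Among the members not called, Ccl2 was at -0.97 (adjusted p = 0.154), Timp1 at -1.40 (adjusted p = 0.0541), Spp1 at -0.44 (adjusted p = 0.432) and Il1b at 0.23 (adjusted p = 0.592). The call for Timp1 changed without any 1 of day 28 replicates 4 and 5, with -1.76 to -1.10 over all 12 omissions. Of 24 chemokines 3 were higher, Cxcl6, Cxcl16 and Cx3cl1 (0.26 to 0.77), and 2 lower, Cxcl12 and Cxcl14. Without the 3 libraries Cxcl16 (0.38, adjusted p = 0.0237) and Cx3cl1 (0.73, adjusted p = 0.0311) were higher and Cxcl12 lower. The call for Cxcl14 changed without any 1 of day 14 replicates 2, 3, 4 and 5 or day 28 replicates 2, 4, 5 and 6, with -0.54 to -0.40 over all 12 omissions. The call for Cxcl16 changed without any 1 of day 14 replicates 1, 2 and 4 or day 28 replicates 3 and 4, with 0.22 to 0.29 over all 12 omissions. The call for Cx3cl1 changed without any 1 of day 14 replicates 1, 2 and 6, with 0.42 to 0.58 over all 12 omissions. Cxcl12, a chemokine of stromal cells, had the lowest p of the list (log2 difference -0.88, SE 0.10, adjusted p = 7.42e-04; without the 3 libraries -0.69, adjusted p = 0.00783). Mast cell markers had 5 of 7 lower and 1 higher, none called without the 3 (5 at an unadjusted p under 0.05), with the protease Tpsb2 at 1.36 to 6.35 FPKM (median 2.48) at day 14 and 0.494 to 0.993 FPKM (median 0.585) at day 28. Erythroid markers had 3 of 8 lower, among them Hbb, a globin chain (-0.99, adjusted p = 0.0159), and none without the 3 (4 at an unadjusted p under 0.05). Of 18 circadian clock genes 1 was called, Clock (log2 difference -0.60, SE 0.14, adjusted p = 0.0107; without the 3 libraries -0.49, adjusted p = 0.0608). Dbp, a clock output gene, was at 0.41 (adjusted p = 0.0568). The call for Dbp changed without any 1 of day 14 replicate 1 or day 28 replicate 5, with 0.34 to 0.50 over all 12 omissions. Heart muscle markers summed to 40.6 to 1044 FPKM at day 14 and 27.9 to 72.2 FPKM at day 28, with none of 8 called (2 at an unadjusted p under 0.05). The 1044 FPKM was day 14 replicate 5 alone, and the next day 14 library was at 295 FPKM. That replicate also had the highest adipose sum, 39.6 FPKM, and the highest mitochondrial share of its group. Skeletal muscle (7 tested) and adipose markers (2) gave no call (4 and 0 at an unadjusted p under 0.05), and all 7 thymus markers were below the filter. In the remaining lists, with all 12 libraries, and in brackets without the 3, the genes called higher and lower were 1 and 1 (0 and 1) of 15 glucocorticoid response genes, 1 and 0 (1 and 0) of 13 heat shock genes, 2 and 2 (2 and 0) of 14 unfolded protein response genes, 3 and 2 (1 and 1) of 28 nuclear encoded respiratory chain genes and 1 and 2 (0 and 1) of 11 hypoxia response genes. For the other lists they were 2 and 0 (0 and 0) of 14 PPAR targets, 3 and 1 (1 and 0) of 10 NRF2 targets, 3 and 0 (1 and 0) of 13 xenobiotic metabolism genes, 2 and 1 (0 and 0) of 7 C/EBP factors, 0 and 1 (0 and 0) of 21 interferon response genes and 0 and 1 (0 and 0) of 8 neutrophil markers.

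**Figure D4:**
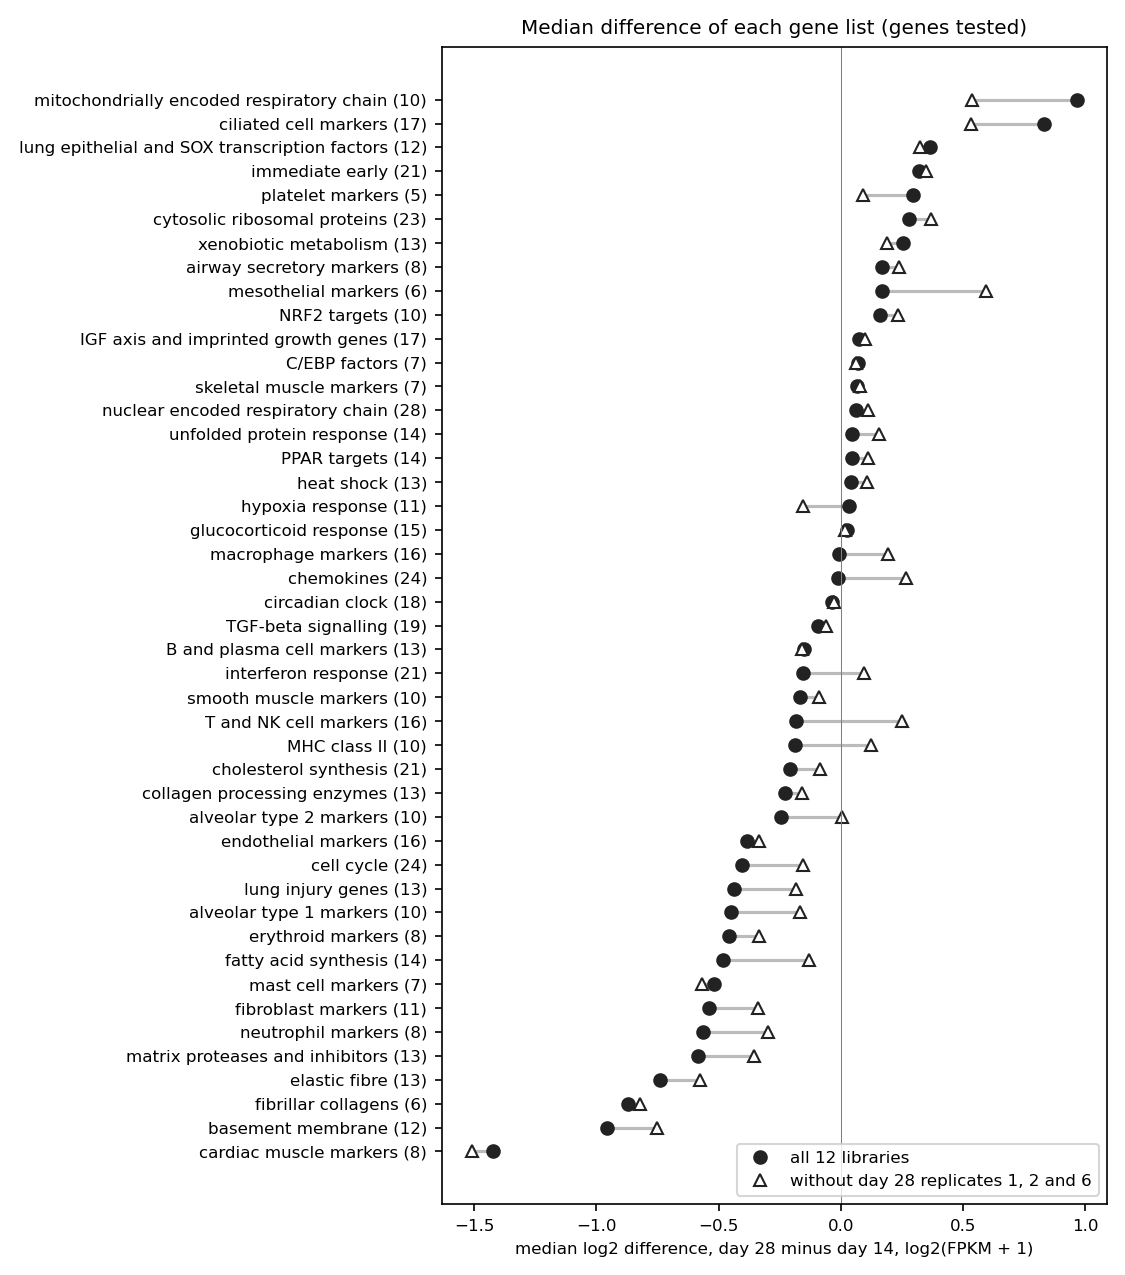
Median log2 difference, day 28 minus day 14, of each gene list with at least 5 tested genes, with all 12 libraries (filled circles) and without day 28 replicates 1, 2 and 6 (open triangles); the number of genes is in brackets. Basement membrane (-0.96) and fibrillar collagen (-0.87) lists are below 0 in both, while the cell cycle list moves from -0.40 to -0.15.

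The change from day 14 to day 28 was then set against that in silica lungs, by the difference of the 2 time effects in a fit of all 24 libraries. Of 20856 genes, 2071 (9.93%) had a difference, 1048 positive (silica minus saline) and 1023 negative. Without the 3 saline libraries 8 were called (0.0384%), with 3932 at an unadjusted p under 0.05 by limma: Fbn1 positive, and Jund, Metrnl, Cnppd1, Pnrc1, Hlx, H1fx and Rnf31 negative, named after their values were seen. Col3a1 was 1406 ± 186 and 576 ± 89.8 FPKM in saline and 1162 ± 196 and 895 ± 151 FPKM in silica lungs at day 14 and day 28 (SD, n = 6), a difference of time effects of 0.92 (SE 0.19, adjusted p = 0.0115). Fbn1 was 30.7 ± 4.11 and 13.2 ± 1.54 FPKM in saline and 18.9 ± 3.24 and 18.9 ± 3.41 FPKM in silica lungs, a difference of 1.15 (SE 0.17, adjusted p = 0.0048). For both, the saline lungs at day 14 had the highest mean of the 4 groups. The differences were positive in 4 of 6 fibrillar collagen, 8 of 12 basement membrane and 4 of 13 elastic fibre genes called, and without the 3 libraries in none, none and 1. Jund was 218 ± 29.9 and 411 ± 68.4 FPKM in saline and 494 ± 111 and 420.2 ± 31.2 FPKM in silica lungs, a difference of -1.12 (SE 0.18, adjusted p = 0.00625). Nkx2-1 was 38.4 ± 5.23 and 81.4 ± 23.1 FPKM in saline and 83.5 ± 16.2 and 74.6 ± 16.1 FPKM in silica lungs, a difference of -1.20 (SE 0.23, adjusted p = 0.00907); its saline day 14 group was the lowest of the 4. For Dbp, whose saline change did not pass, the difference was -2.32 (SE 0.42, adjusted p = 0.00876).

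**Figure D5:**
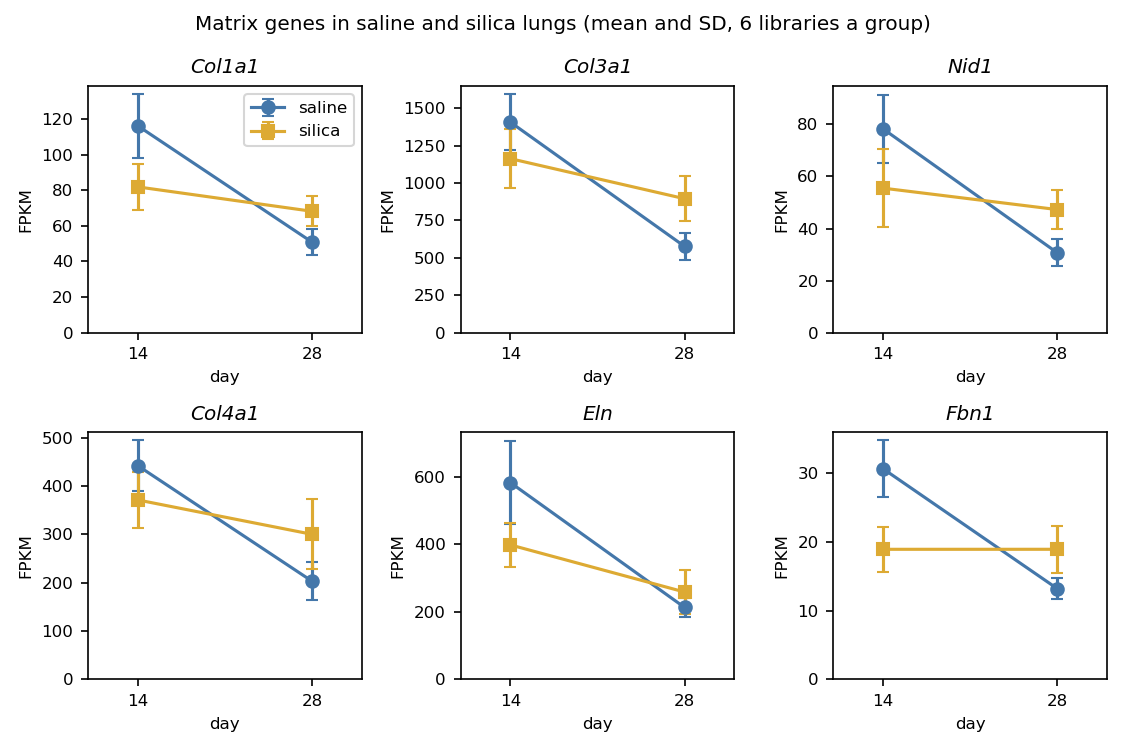
Mean FPKM and SD (6 libraries a group) of 6 matrix genes at day 14 and day 28 in saline (circles) and silica lungs (squares). Fbn1 went from 30.7 ± 4.11 to 13.2 ± 1.54 FPKM in saline lungs and from 18.9 ± 3.24 to 18.9 ± 3.41 FPKM in silica lungs.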

How the data were processed

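Poly-A RNA of 24 rat lungs was sequenced; 12 saline libraries are analysed here. FPKM values for 32489 gene IDs were made and deposited by the authors; the rat build Rnor_6.0 and the tools HISAT2 2.1.0, HTSeq 0.9.1, FastQC 0.11.9 and cutadapt 4.0 are named, without roles, per the submitters' processing notes. Symbols came from the authors' second table, whose FPKM were identical (largest difference 0); where IDs shared a symbol, the ID with the highest mean was used.

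Genes with at least 0.5 FPKM in at least 6 of the 12 libraries were tested on log2(FPKM + 1) with limma 3.58.1 (R 4.3.3, trend), with Benjamini-Hochberg adjustment over all 19150. The difference of time effects used all 24 libraries. Single values were compared by exact permutation (924 regroupings). Whole reads and the length behind each FPKM were recovered from the values' steps for 31521 of 31521 genes above 0 (within 0.02 read) and gave depth, mitochondrial share and lengths. The test was also run on simulated reads with known changes. Those reads held no mitochondrial or length shift between the groups, so that run does not bear on such shifts. Replicates are separate biological replicates per the labels.

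The comparison, the 48 gene lists and the tests were chosen with earlier results of these data known. Of 662 listed genes 633 were matched and 585 tested. Named genes were the 10 largest rises and 10 largest falls among called genes with an assigned symbol, a mean FPKM of at least 1 and no overlap between groups; the 5 largest each way among genes called with all 12 libraries and without day 28 replicates 1, 2 and 6; the 4 lowest-p genes of every list, called or not; and all tested members of the lung injury, circadian clock and mitochondrial lists. Other members are named as examples, after their values were seen. The nuclear long noncoding RNA list had no matched gene. Promoter letters came from RefSeq GRCr8 (matplotlib 3.10.9, Python 3.11.15). Alternatives covered libraries, scaling, filters, pseudocount, covariates and voom; median of ratios scaling without the 3 libraries was added after seeing the data.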

Additional observations from a re-analysis of the deposited data

Results flagged for a closer look

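The change from day 14 to day 28 differed between silica and saline lungs, by limma's test of the difference itself, for 75 of the 227 named genes. Over all genes the share was 9.93% (2071 of 20856). Most named genes were chosen by the size or p of their saline change. The same saline libraries enter this difference, so the choice itself favours large differences here, and the 75 are not independent support. The log2 difference, silica minus saline, was positive for Lrrc8a (3.05), Palm2 (2.72), Irf9 (2.34), Aqp1 (2.33), Mcc (1.94), Ssh2 (1.81), Numb (1.64), Jcad (1.47), Rasgrp3 (1.46), Akap5 (1.38), Mest (1.36), Scn3b (1.32), Adm (1.21), Npnt (1.21), Fbn1 (1.15), Itga8 (1.14), Ddx58 (1.12), Nid1 (1.12), Cxcl12 (1.08), Hspa5 (1.08), Slc4a1 (0.98), Stard4 (0.95), Col3a1 (0.92), Col1a1 (0.92), Lamc1 (0.90), Ccna2 (0.90), Kif11 (0.85), Mmp2 (0.83), Col4a1 (0.80), Mmp14 (0.79), Adamts2 (0.79), Cdh5 (0.78), Eln (0.78), Loxl2 (0.76), Ndufs1 (0.75), Elovl5 (0.75), Lamb1 (0.74), Pdia4 (0.74), Col1a2 (0.72), Fads2 (0.71), Acly (0.69), Hspa8 (0.69), Tgfbr2 (0.66), Arntl (0.65), Aplnr (0.58), Hspd1 (0.55), Igf2r (0.55), Mylk (0.54), Col5a2 (0.50). It was negative for Dbp (-2.32), RT1-N2 (-2.18), Scand1 (-1.96), Tef (-1.91), Cracr2b (-1.77), Rplp2 (-1.60), Nr1d1 (-1.47), Ccdc190 (-1.38), 4930444P10Rik (-1.31), Junb (-1.27), Nkx2-1 (-1.20), COX2 (-1.15), Cdkn1c (-1.14), Klf2 (-1.13), Jund (-1.12), Wasf3 (-1.12), Per3 (-1.10), Slc16a11 (-1.08), Lrrc10b (-1.04), Osgin1 (-0.92), Rps2 (-0.87), Atf4 (-0.83), Cyp4b1 (-0.79), Tppp3 (-0.75), Rplp1 (-0.61), Foxa2 (-0.57). With the 3 day 28 libraries left out, Fbn1 and Jund were the named genes still called.

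Single libraries stood apart from the other 5 of their group, by Dixon's ratio above 0.625 on log2(FPKM + 1) for genes. Chance gives about 1 in 20 groups, and 36 of 460 were found. At day 14 the highest library stood apart for Aqp1 in replicate 3 (324), COX1 in replicate 5 (25253), COX2 in replicate 5 (2329.6), COX3 in replicate 5 (1015), Cidec in replicate 5 (5.42), Col1a2 in replicate 1 (195), Cpa3 in replicate 1 (9.5), Drc1 in replicate 5 (8.48), Fcer2 in replicate 5 (5.22), Ltbp2 in replicate 1 (70.3), ND3 in replicate 5 (895), ND5 in replicate 5 (1554), Ndufs1 in replicate 5 (37.1), Sdhc in replicate 1 (61.5) FPKM. At day 14 the lowest stood apart for Ankrd37 in replicate 1 (2.02), Cebpb in replicate 5 (0.752), Csf1r in replicate 5 (43.5), Ddx58 in replicate 5 (11.3), Elovl5 in replicate 5 (34.2), Etv5 in replicate 5 (16.6), Ifih1 in replicate 5 (6.9), Lrrc8a in replicate 6 (14), Tgfbr2 in replicate 5 (223), rnf141 in replicate 5 (1.16) FPKM. At day 28 the highest stood apart for Ciita in replicate 5 (12), Synpo2 in replicate 4 (20.1), Tpsb2 in replicate 3 (0.993), rnf141 in replicate 1 (27) FPKM. At day 28 the lowest stood apart for Col1a1 in replicate 6 (36.1), Cox5a in replicate 6 (98.4), Cxcr2 in replicate 1 (0.0881), Ebp in replicate 5 (7.3), Gclm in replicate 6 (3.62), Rpl8 in replicate 6 (260.3), Sdhc in replicate 5 (32.5) FPKM. Day 14 replicate 5 also had the highest mitochondrial share of its group, 3.80% of reads.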

How the results depend on the processing

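For the saline comparison, 4666 genes were called; leaving out 1 library at a time gave 2889 to 5869, with 2889 without day 14 replicate 1, 3025 without day 14 replicate 2, 3110 without day 14 replicate 4, and 3063 and 3045 without day 28 replicates 1 and 2. Other counts were 1231 without day 28 replicates 1, 2 and 6, 1127 with median of ratios scaling as well, 7263 without replicates 3, 4 and 5, 1274 at an adjusted p under 0.01 and 76 with the mitochondrial percent as a covariate. The replicate block gave 1496, with 7 of the ribosomal protein genes higher in place of 14. Same-numbered libraries correlated at -0.331 to 0.101 over 6 pairs, and 2 of 6 matched their own number best. These values show no clear pairing by number, and whether same-numbered samples were handled together is not known. The remaining settings kept the count within 1.5 times. For the difference of time effects, 2071 genes became 8 without the 3 libraries, 2 with the covariate, 1227 with the replicate block, and 1062 to 3286 when 1 library was left out: 1098 without saline day 14 replicate 1, 1281 without saline day 14 replicate 2, 1220 without saline day 14 replicate 4, 1094 without saline day 28 replicate 1, 1110 without saline day 28 replicate 2, 3286 without saline day 28 replicate 5, 1203 without silica day 14 replicate 4, 1160 without silica day 14 replicate 5, 1185 without silica day 28 replicate 3, 1062 without silica day 28 replicate 4. Summed levels at day 28 moved by over 1 SD without the 3 libraries for the unfolded protein response (median 1124 FPKM), neutrophil (145), skeletal muscle (117) and adipose (6.02) lists. Sign changes were in named genes that were not called, except COX1 and ND3. The mitochondrial percent counts the reads of ND3 and ND5 themselves, so their sign changes with it as a covariate are not independent of it. With library weights, the sign turned for Bhlhe41 (0.00873), Lrrn4 (0.00113), Nfil3 (0.000714). With median of ratios scaling, the sign turned for Cry2 (-0.00826). With the mitochondrial percent as a covariate, the sign turned for Acta2 (0.0541), Bhlhe40 (0.10), Bhlhe41 (0.37), Cd3g (0.10), Cd4 (0.18), Ciita (0.00302), Etv5 (0.0495), Hspa8 (0.0716), Mmp12 (0.46), ND3 (-0.0251), ND5 (-0.13), Ncr1 (0.0534), Nfil3 (0.22), Nlrp3 (0.44), Npas2 (-0.16), Nr1d2 (0.16), Per2 (-0.0149), Pf4 (-0.25), RT1-Ba (0.17), Rora (0.47), Sftpc (0.19), Slc34a2 (0.085), Synpo2 (0.0047), Tef (-0.12), Tgfb1 (0.20). With quantile normalization, the sign turned for COX1 (-0.10), Hlf (-0.0103). With scaling without mitochondrial genes, the sign turned for Nfil3 (0.0554). With voom on recovered reads, the sign turned for Cry2 (-0.0112), Wt1 (-0.0191). Without day 28 replicates 1, 2 and 6, the sign turned for Bhlhe40 (0.0801), Bhlhe41 (0.23), Cd3g (0.0631), Cd4 (0.0754), Cry2 (-0.0158), Lrrn4 (0.44), Mmp12 (0.38), Nfil3 (0.10), Nlrp3 (0.22), Npas2 (-0.10), Per2 (-0.0658), Per3 (-0.0395), Pf4 (-0.0262), RT1-Ba (0.00655), Rora (0.0136), Sftpc (0.12), Tgfb1 (0.15). Without those 3 and with median of ratios scaling, a setting added after seeing the data, the sign turned for Bhlhe40 (0.0591), Bhlhe41 (0.22), Cd3g (0.0436), Cd4 (0.0539), Cry2 (-0.0363), Lrrn4 (0.43), Mmp12 (0.36), Nfil3 (0.0812), Nlrp3 (0.20), Npas2 (-0.12), Per2 (-0.0847), Per3 (-0.0589), Pf4 (-0.0475), Sftpc (0.10), Tgfb1 (0.13). Without day 28 replicates 3, 4 and 5, the sign turned for ATP6 (-1.05), Il1b (-0.19), Msln (-0.0852), Per1 (0.0923), Upk3b (-0.38). Leaving out 1 library turned the sign of ATP6 (-0.36 to 1.01), Bhlhe40 (-0.20 to 0.0186), Bhlhe41 (-0.17 to 0.0647), Cidea (-0.34 to 0.0072), Cry2 (-0.0236 to 0.14), Hlf (-0.0143 to 0.12), Lrrn4 (-0.41 to 0.21), Mmp12 (-0.41 to 0.0126), Nfil3 (-0.0741 to 0.11), Nr1d2 (-0.26 to 9.48e-05). The cause of these changes was not tested.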
